A study of Arabidopsis thaliana with 39 samples.

Results

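The genes described here are 10 Arabidopsis thaliana genes of carbon starvation and amino acid breakdown, followed by locus identifier through seedling and shoot apex RNA-seq tables that together listed 33609 genes. All 10 were present in each of the 4 tables. They were chosen by their expression differences from Col0, which pointed in opposite directions in mutant seedlings of one experiment and in a DNA polymerase mutant, so their differences in fld and ld of seedling set 1 and in pol2a against Col0 are given as values, without a test. For the members, only comparisons of libraries that the choice did not use were tested. These comparisons concern ld or pol2a, mutations whose differences from Col0 also chose the genes, so they are not independent of the choice. Some of those fits took their spread from all groups of an experiment, including groups that chose the genes. Other genes of the same pathways were also tested in the comparisons that chose the members.

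When a plant cell runs short of sugar, the SnRK1 kinase and the C/S1 bZIP transcription factors switch on genes that recover carbon and nitrogen from proteins, amino acids, lipids and cell wall sugars. Leucine, isoleucine and valine are broken down in mitochondria by a transaminase, a branched-chain keto acid dehydrogenase and acyl-CoA enzymes, which pass electrons to respiration. Asparagine synthetase stores the freed nitrogen in an amino acid with little carbon. Many of these transcripts accumulate in darkness and are repressed by sugar and light, which is the origin of the DIN (dark inducible) names.

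The groups were all 7-day-old plants grown on Murashige and Skoog medium with 16 h of light per day. Whole seedlings came as 3 sets: wild type (Col0) with fld and ld in set 1, Col0 with the single mutants ld and pol2a and the double mutant ld pol2a in set 2, and Col0 beside ld in set 3. Shoot apices, 30 dissected per sample, were taken from Col0, ld, pol2a and ld pol2a. Each of the 13 groups had 3 libraries, 39 in all. LD and FLD both act in the autonomous pathway to flowering, LD as a homeodomain protein and FLD as a relative of histone demethylases, and POL2A the catalytic subunit of DNA polymerase epsilon. Alleles, sugar content of the medium and hour of harvest were not stated in the sources, and bulk RNA cannot tell fewer cells of a type from less RNA per cell. FLD had a signal of 55.4 to 69.2 in Col0 and 6.20 to 16.6 in fld of set 1. LD in seedlings and POL2A in seedlings and apices were not lower in the libraries labelled ld or pol2a on the deposited scale, so those labels are not checked by transcript level.

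Seedling values are signal on a spike-in scale, that is, gene counts divided by 1 factor per library, and apex values are counts. By spike-in signal, most genes were above Col0 in each group that carries fld or ld. Each seedling difference is therefore also given relative to the shift, which means after rescaling so that the median gene does not move. Recovered reads per library (in units of 1e6) ranged from 10.4 to 14.4 for set 1, from 13.2 to 35.0 for set 2, from 23.1 to 37.8 for set 3, and from 11.9 to 21.1 for apices. Col0 libraries 1 and 2 of set 3 differed by less than the sampling noise (chi-square per degree of freedom 0.605 over 20838 genes, against 1.98 to 3.90 for the other pairs of that set), so set 3 results were also computed with them counted as 1 sample. In set 1, fld libraries 1 and 3 (0.944), fld libraries 1 and 2 (1.03) and ld libraries 2 and 3 (1.02) were also near that noise. Counting fld 1 and 3, or ld 2 and 3, once moved no member's mean by more than 1.41% and 2.62%. Within groups, values of sets 1 and 2 lacked 1 direction of variation almost fully, so their spread is understated and their p-values may be too small. The design text calls the replicates biological. Nothing says whether they were separate cultures, so p-values reflect the spread among libraries, part of which may be technical.

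The 10 genes fall into 4 roles, with positions in TAIR10.1. The branched-chain pathway was represented by BCAT-2 (AT1G10070, chromosome 1, 3288087 to 3290471), a branched-chain aminotransferase, and by BCE2 (AT3G06850, also called DIN3, chromosome 3, 2157908 to 2160669), the dihydrolipoyl acyltransferase subunit of the keto acid dehydrogenase. It also included IVD (AT3G45300, chromosome 3, 16621452 to 16625043), isovaleryl-CoA dehydrogenase, and MCCA (AT1G03090, chromosome 1, 739544 to 744184), the biotin subunit of methylcrotonyl-CoA carboxylase. Other amino acids were covered by THA1 (AT1G08630, chromosome 1, 2743761 to 2747967), threonine aldolase, and ASN1 (AT3G47340, also called DIN6, chromosome 3, 17437840 to 17441431), asparagine synthetase. The sugar and dark markers were DIN10 (AT5G20250, chromosome 5, 6833564 to 6836862), a raffinose synthase-like gene, DIN11 (AT3G49620, chromosome 3, 18393747 to 18397050), a 2-oxoacid-dependent dioxygenase, and SEN1 (AT4G35770, also called DIN1, chromosome 4, 16944878 to 16946266), a senescence-associated gene. ICL (AT3G21720, chromosome 3, 7652487 to 7656053), isocitrate lyase, makes glyoxylate from isocitrate when stored lipid is turned into sugar. Genes on the opposite strand overlapped 10.9% of the exon length of MCCA, 9.19% of BCAT-2, 5.77% of THA1 and 2.63% of DIN10. It is not known whether reads were counted by strand, so those shares of their reads are uncertain.

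Since the members moved together in several comparisons, the 250 bases before the annotated start of 9 of them were searched on both strands for 4 motifs linked to sugar or energy control. These were CACGTG, the G-box that bZIP factors bind, ACTCAT, an element of the proline dehydrogenase promoter bound by S1 bZIP factors, TATCCA, a sugar starvation element known from rice amylase promoters, and GATAAG, the I-box found in light-regulated promoters. The windows below are RefSeq TAIR10.1 sequence, read 5′ to 3′ on the gene's strand with matches to either strand of a motif in capitals. They are the 4 members for which matches were most varied or which the results turn on.
ASN1 promoter, chr3:17441432-17441681, minus strand: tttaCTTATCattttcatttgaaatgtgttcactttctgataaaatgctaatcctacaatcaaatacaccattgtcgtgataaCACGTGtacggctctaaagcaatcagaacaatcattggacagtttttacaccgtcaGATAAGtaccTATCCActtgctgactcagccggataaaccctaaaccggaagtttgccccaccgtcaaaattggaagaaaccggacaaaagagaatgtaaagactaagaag
DIN11 promoter, chr3:18393497-18393746, plus strand: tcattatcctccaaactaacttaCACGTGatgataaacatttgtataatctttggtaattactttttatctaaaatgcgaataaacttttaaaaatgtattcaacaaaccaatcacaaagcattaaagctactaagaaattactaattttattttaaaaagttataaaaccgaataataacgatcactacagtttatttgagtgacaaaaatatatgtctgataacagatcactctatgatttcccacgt
BCAT-2 promoter, chr1:3287837-3288086, plus strand: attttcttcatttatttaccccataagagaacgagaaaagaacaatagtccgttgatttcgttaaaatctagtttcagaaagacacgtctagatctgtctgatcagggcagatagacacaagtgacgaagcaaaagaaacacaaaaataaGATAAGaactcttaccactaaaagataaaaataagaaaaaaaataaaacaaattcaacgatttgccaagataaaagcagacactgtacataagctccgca
THA1 promoter, chr1:2747968-2748217, minus strand: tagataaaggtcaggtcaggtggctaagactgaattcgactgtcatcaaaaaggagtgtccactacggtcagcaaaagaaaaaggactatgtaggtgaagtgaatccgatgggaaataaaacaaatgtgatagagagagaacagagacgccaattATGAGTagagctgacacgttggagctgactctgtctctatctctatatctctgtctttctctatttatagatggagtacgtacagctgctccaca
CACGTG occurred in 2 of the 9 member windows (DIN11 and ASN1), against 6.49% of 27431 such windows in the genome. GATAAG occurred in 3 of 9 (BCAT-2, ASN1 and SEN1), against 12.3%, ACTCAT in 1 of 9 (THA1), against 12.3%, and TATCCA in 1 of 9 (ASN1), against 13.6%. ASN1 was the member whose window held 3 of the 4 motifs, and its window also overlaps AT3G47341. The windows of ICL, DIN10, IVD and MCCA held none of these letters. A match is a string of letters and does not show binding.

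In wild-type seedlings the genes kept nearly the same order from set to set, but their shares of the library did not. In TPM, a share of the library corrected for exon length, DIN10 led in set 1 at 398 ± 3.91 (SD, n = 3), followed by SEN1 at 192 ± 6.35 and ASN1 at 69.0 ± 1.97. MCCA at 43.2 ± 2.66 and IVD at 39.7 ± 3.02 were within their spread of each other. BCE2 followed at 24.4 ± 0.489, then BCAT-2 at 11.9 ± 1.88, DIN11 at 8.999 ± 1.05, THA1 at 5.08 ± 0.894 and ICL at 1.93 ± 0.473. The abundant sugar markers thus stood at one end and the glyoxylate cycle gene at the other, with 21 to 35 ICL reads per Col0 library.

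Set 2 wild type had the same order at higher levels, with DIN10 at 1129 ± 13.1 TPM, SEN1 at 498 ± 12.1, ASN1 at 204 ± 3.73, MCCA at 139 ± 2.24 and IVD at 116 ± 2.33. BCAT-2 was at 55.6 ± 1.12, DIN11 at 47.0 ± 1.61, THA1 at 33.5 ± 1.19 and ICL at 3.07 ± 0.657. In set 3, DIN10 (619 TPM) and SEN1 (539 TPM) were closer together and DIN11 was last at 4.36 TPM. The place of DIN11 therefore differed from the other sets. In Col0 apices, ASN1 (183 ± 123.3 TPM), DIN10 (176 ± 99.9) and SEN1 (163 ± 144) could not be ordered within their spread. ICL had 0 to 2 reads per Col0 apex library.

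Per 1e6 of library signal, all 10 members were higher and 0 lower in set 2 Col0 than in set 1 Col0 with no overlap of libraries. Over all 18832 genes compared, 37.7% were higher and 24.4% lower, so the count alone says little. The size stood further out: 9 members were at least 2-fold higher, against 1.52% of all genes, with a median of 2.91-fold against 1.06-fold. THA1 was 6.47-fold higher, DIN11 5.13-fold, BCAT-2 4.59-fold and ICL 1.56-fold. From set 1 to set 3, 9 members were higher (48.0% of all genes) and 8 at least 2-fold (6.39%), while DIN11 was lower (28.1% of all genes), at 0.512 of its set 1 share. Between sets 2 and 3 the median member ratio was 1.00, 4 members were higher (41.2% of all genes), 0 were at least 2-fold higher (6.72%), and 5 were lower (33.3%), among them DIN10 at 0.589 and DIN11 at 0.0999. The sets were separate experiments scaled separately, and no test was made across them. Marker sums per 1e6 also differed between set 1 and set 2 Col0: 84.2 to 89.0 and 50.2 to 54.0 for 5 root genes, 24490 to 25310 and 18030 to 18650 for 5 green tissue genes, and 595 to 602 and 661 to 685 for 11 clock genes. Their part in these differences was not tested. Summed over the members, the share of the library was 0.126% to 0.128% in set 1 Col0, 0.355% to 0.367% in set 2 Col0 and 0.270% to 0.274% in set 3 Col0.

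**Figure D1:**
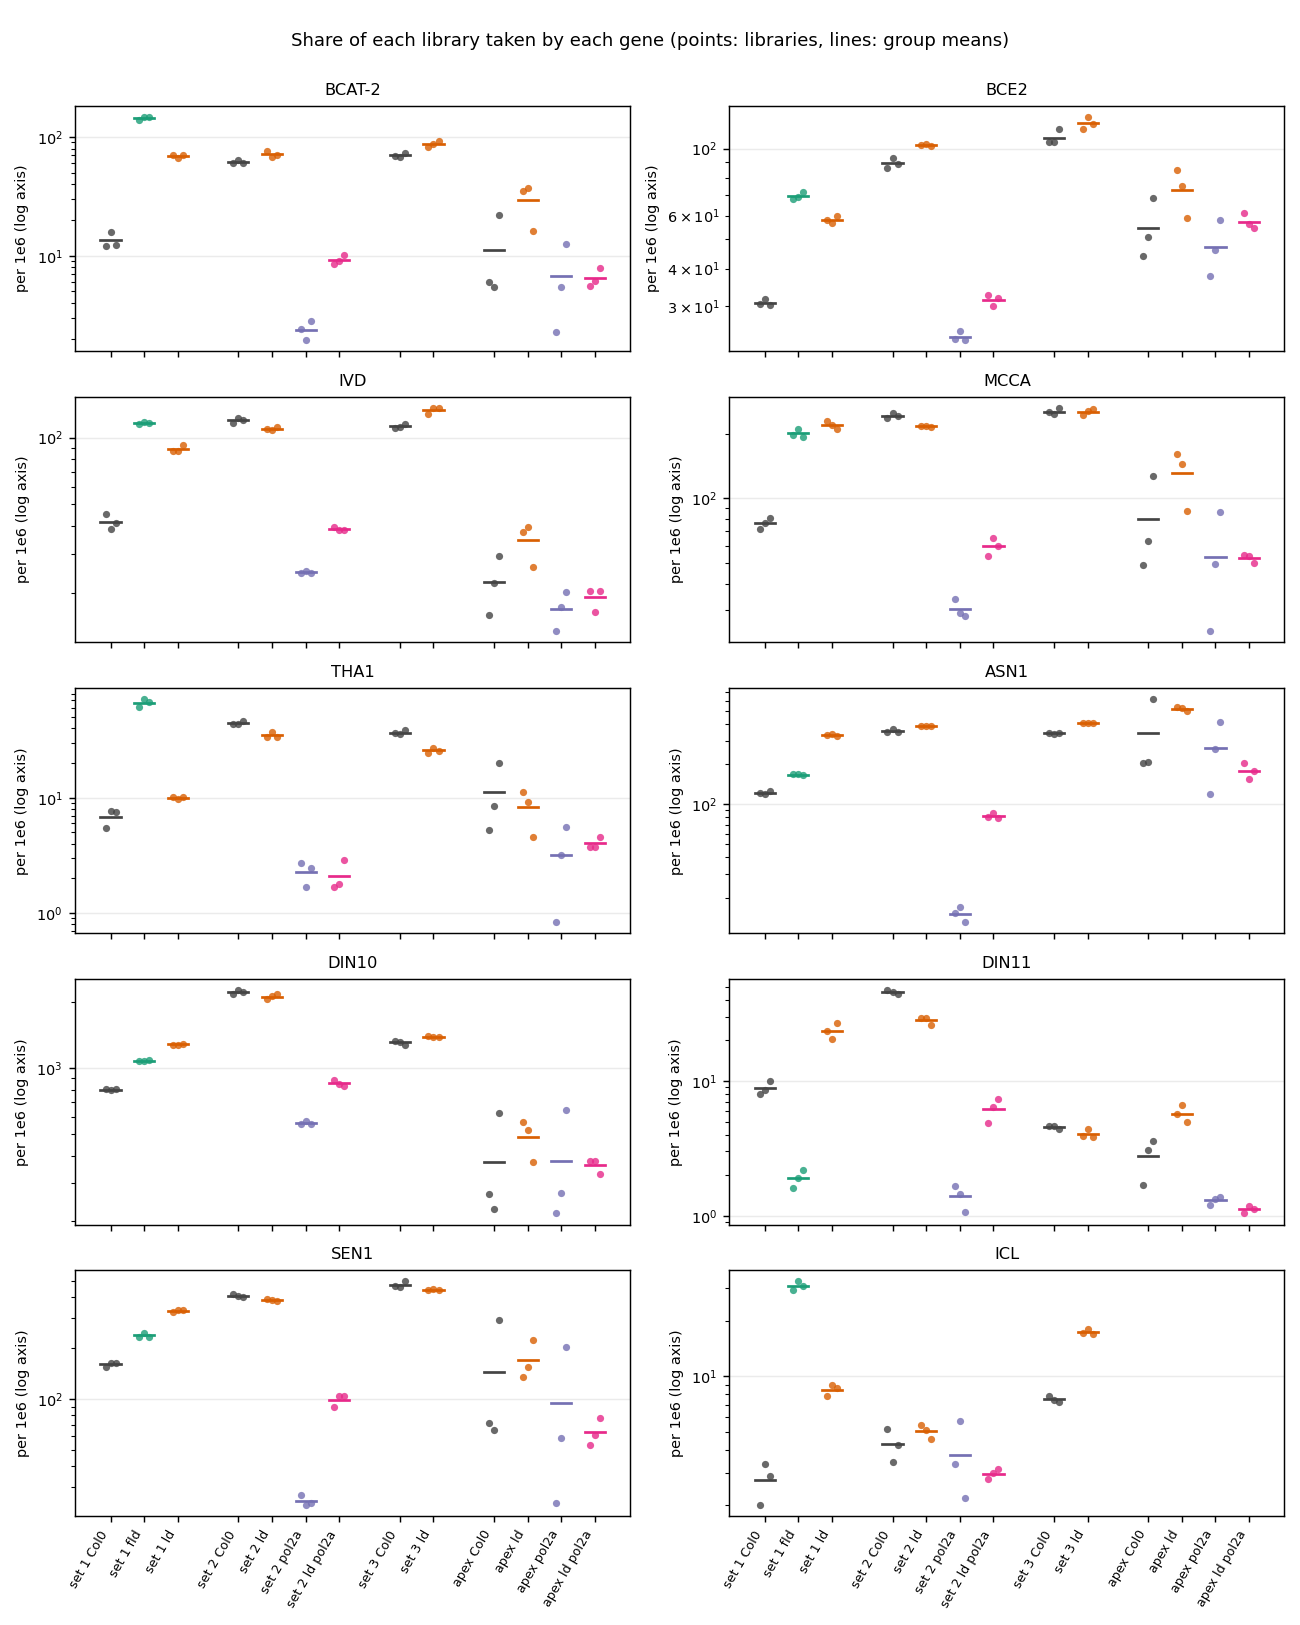
Share of each library taken by each gene, in reads per 1e6 of the library's own total on a log axis, for every group. Points are libraries and lines are group means; ICL in apices, at 0 to 4 reads, is not drawn. The set 1 Col0 points sit below those of set 2 Col0 in every panel, the set 2 pol2a points are the lowest of their set in every panel but ICL and THA1, and the apex Col0 and pol2a points are spread widely.

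In set 1 the members were higher in both mutants than in Col0, with 1 exception, and these differences chose the genes. In fld, 9 members had all libraries above Col0 and 1 had all below on the spike-in scale, where 98.6% and 0.22% of all genes did so. Relative to the shift the counts were again 9 and 1, against 31.5% and 31.4%, and the median member log2 difference was 1.16 against 0.01 for all genes. In ld all 10 were higher, against 96.5% of genes by spike-in signal and 27.3% relative to the shift, where the median member difference was 1.12.

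BCAT-2 had signals of 73.7, 96.5 and 76.6 in the Col0 libraries, 2537, 2575 and 2602 in fld and 912, 916 and 931 in ld. That placed BCAT-2 3.31 log2 units above the shift in fld and 2.24 in ld. THA1 was 33.6, 46.5 and 46.0 in Col0, 1111, 1251 and 1190.0 in fld and 130.3, 135.0 and 134.1 in ld, which is 3.15 above the shift in fld and 0.43 in ld. ICL was 12.4, 20.3 and 17.8 in Col0, 530.1, 567 and 541 in fld and 101, 124 and 114 in ld, or 3.35 and 1.5 above the shift. These 3 genes had the highest member differences in fld, and their fld libraries lay above their ld libraries.

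The later branched-chain enzymes were closer to the shift than BCAT-2, THA1 and ICL in fld, whereas in ld all 3 were further from it than THA1. BCE2 lay between 187 and 192 in Col0, 1207 and 1266 in fld, and 747 and 792 in ld. IVD lay between 235 and 276 in Col0, 2043 and 2096 in fld, and 1125 and 1224 in ld, and MCCA between 439 and 499, 3407 and 3655, and 2782 and 3049. Against the shift, the 3 genes were at 1.05, 1.35 and 1.26 in fld and at 0.79, 0.97 and 1.40 in ld.

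The sugar and dark markers and ASN1 lay higher in ld than in fld relative to the shift. ASN1 was 744, 724 and 776 in Col0, 3063, 2918 and 2901 in fld and 4258, 4679 and 4300 in ld, or 0.32 above the shift in fld and 1.31 in ld. DIN10 and SEN1 were at 0.31 and 0.44 in fld and at 0.56 and 0.94 in ld. DIN11 was the exception in fld. Its libraries were 49.5, 52.3 and 62.1 in Col0, 29.1, 33.2 and 38.7 in fld and 303, 284 and 357 in ld. DIN11 was thus 2.31 log2 units under the shift in fld (-2.31) and 1.27 above it in ld, from 22 to 25 reads per fld library.

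Markers moved in set 1 as well, and their part in the differences was not tested. The 5 root genes summed to 71.1 to 72.9 per 1e6 in ld libraries, below Col0 (84.2 to 89.0) and fld (81.7 to 86.5), which overlapped. The 5 green tissue genes ranged over 24490 to 25310 for Col0, 25640 to 26520 for fld and 22700 to 23160 for ld. The 11 clock genes were lowest for Col0 (595 to 602), then fld (635 to 643), then ld (681 to 686). These sums hide opposite moves of single clock genes. PRR7 averaged 70 per 1e6 in Col0, 129 in fld and 105 in ld, while GI averaged 125, 99.4 and 100.

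In set 2, pol2a seedlings had 9 of the members lower than Col0 in every library, and this contrast also chose the genes. Of all genes, 27% were so placed by spike-in signal, and 31.5% relative to the shift. The median member log2 difference was -3.37 on the spike-in scale against 0.06 for all genes, and -3.43 relative to the shift.

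BCAT-2 had signals of 740.5, 769 and 722 in Col0 and 32.5, 25.7 and 37.1 in pol2a, from 33 to 37 reads per pol2a library. ASN1 was 4281, 4418 and 4158 in Col0 and 208, 223 and 172 in pol2a. DIN11 was 573, 552 and 530.2 in Col0 and 22.6, 19.3 and 14.0 in pol2a. Their differences relative to the shift were -4.59, -4.47 and -4.91, the lowest among the members. THA1 (534, 525 and 549.9 in Col0, 36.4, 22.1 and 32.1 in pol2a) and SEN1 (5077, 4917 and 4815, then 366, 312 and 318) were at -4.20 and -3.95. The later branched-chain genes were again closer to the shift, with BCE2 at -1.82, IVD at -2.19 and MCCA at -2.91, and DIN10 was at -1.9. ICL overlapped, with 63.3, 41.6 and 50.5 in Col0 and 45.3, 74.9 and 29.1 in pol2a.

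The members with the largest differences were the same in both contexts for some genes only. BCAT-2 and THA1 were among the 4 members with the highest differences in fld and the 4 with the lowest in pol2a, while ICL was high in fld and did not separate in pol2a. No test of this was made, since both contrasts chose the genes.

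The ld single mutant of set 2 differed from Col0 by about as much as other genes did. It shares its Col0 libraries with the pol2a contrast, so values only are given. By spike-in signal 9 members were above Col0 in all libraries and 0 below, against 79.3% and 1.85% of all genes, with a median log2 difference of 0.60 against 0.56. After rescaling, 3 members were higher (22.8% of all genes), 3 lower (20.8%) and 4 overlapped, with a median of 0.04. ICL at 0.36, BCAT-2 at 0.34 and BCE2 at 0.32 were the highest, and DIN11 at -0.58 and THA1 at -0.23 the lowest. The members' rescaled differences thus ran from -0.58 to 0.36 in ld of set 2 and from 0.43 to 2.24 in ld of set 1, and the difference between the sets was not tested.

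The double mutant ld pol2a lay between pol2a and ld for 9 members by mean spike-in signal and for 8 after rescaling, the exceptions being ICL on both scales and THA1 after rescaling. Against Col0, whose libraries the choice of genes used, 2 members (DIN10 and ICL) had higher spike-in signal and 7 lower, where 97.7% of all genes had higher and 0.35% lower signal. Rescaled, all 10 were lower and 0 higher (30.9% and 32.0% of all genes), with a median of -1.96. Against pol2a all 10 were higher on the spike-in scale (98.1% of all genes). After rescaling 8 were higher (30.8%) and THA1 and ICL overlapped. ASN1 at 2.44, DIN11 at 2.10, SEN1 at 1.98 and BCAT-2 at 1.94 had the highest differences between ld pol2a and pol2a.

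The comparison of ld pol2a with ld contrasts groups of set 2 that did not choose the genes, and there the members fell. The mutation it adds, pol2a, is the one whose contrast with Col0 chose the genes. A fall here is therefore not independent support. Its filter, rescaling and spread came from all 12 libraries of set 2, Col0 and pol2a among them. Before rescaling, limma called 9 members lower and 0 higher, also at an unadjusted p under 0.05, against 1.17% of all 19444 genes called lower and 94.0% called higher. The median member log2 difference was -1.03, while that of all genes was 0.93. Rescaled, all 10 were called lower and 0 higher by limma, also at an unadjusted p under 0.05, against 29.6% and 30.7% of all genes, with a median of -1.95 against 0.01.

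BCAT-2 was 1491, 1315 and 1359 in ld and 301, 322 and 371 in ld pol2a, and fell by 2.07 ± 0.10 (SE) on the spike-in scale (limma, adjusted p = 5.99e-16) and by 2.98 ± 0.09 relative to the shift (limma, adjusted p = 7.72e-19). THA1 was 662, 717 and 643 in ld and 58.6, 63.8 and 104 in ld pol2a, from 23 to 100 reads per ld pol2a library. It fell by 3.19 ± 0.20 and by 4.09 ± 0.18 (limma, adjusted p = 2.16e-09 and 6.28e-11), the largest fall among the members on both scales. The libraries of the groups did not overlap for either gene.

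ASN1, at 7580, 7430 and 7414 in ld, was 2822, 3068 and 2894 in ld pol2a, and fell by 1.35 ± 0.06 and by 2.27 ± 0.06 (limma, adjusted p = 7.16e-15 and 1.58e-17). SEN1 was 7626, 7455 and 7304 in ld and 3123, 3688 and 3792 in ld pol2a, and fell by 1.08 ± 0.06 and by 2.003 ± 0.05 (limma, adjusted p = 9.36e-13 and 5.24e-21). DIN11 was 568, 565 and 500.4 in ld and 171, 226 and 266 in ld pol2a, and fell by 1.32 ± 0.15 and by 2.23 ± 0.13 (limma, adjusted p = 1.04e-07 and 8.13e-12). ASN1, SEN1 and DIN11 were 2.11 to 2.55 times lower in signal, while 94.0% of all genes were called higher. DIN10 fell least of the 9 on the spike-in scale, from a range of 40269 to 41831 to a range of 30353 to 31031 (by 0.43 ± 0.03 and 1.35 ± 0.03; limma, adjusted p = 3.37e-13 and 1.12e-21).

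Of the later branched-chain genes, MCCA was 4223, 4219 and 4108 in ld and 1882, 2330 and 2192 in ld pol2a, and fell by 0.98 ± 0.07 on the spike-in scale, while its rescaled difference was -1.895 ± 0.06 (limma, adjusted p = 5.98e-10 and 1.43e-17). BCE2 fell by 0.82 ± 0.05 and by 1.74 ± 0.05, and IVD by 0.62 ± 0.04 and 1.54 ± 0.04 (limma, adjusted p = 4.75e-14, 5.89e-20, 1.10e-12 and 5.39e-20 in the same order). ICL, at 107, 99.0 and 87.8 in ld and 96.8, 106 and 115 in ld pol2a, did not pass on the spike-in scale (0.11 ± 0.24; limma, adjusted p = 0.642). Relative to the shift ICL fell by 0.79 ± 0.24 (limma, adjusted p = 0.00899), and this call was lost without ld pol2a library 1 (adjusted p = 0.0513).

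Sums of tissue and clock markers also differed between groups of set 2, and their part in the results was not tested. Among the root markers, limma called only CASP1 in ld pol2a against ld relative to the shift. Summed over 5 root markers, signal per 1e6 was 50.2 to 54.0 in Col0, 33.5 to 34.9 in ld, 21.8 to 23.3 in pol2a and 24.1 to 24.8 in ld pol2a. Summed over 5 green tissue markers it was 18030 to 18650 in Col0, 23320 to 24080 in ld, 25140 to 26050 in pol2a and 25790 to 26310 in ld pol2a. The 11 clock genes summed to 661 to 685 in Col0, 672 to 683 in ld, 541 to 557 in pol2a and 584 to 589 in ld pol2a. Single clock genes differed more: PRR5 averaged 25.7 per 1e6 in Col0 and 12.4 in pol2a, while GI averaged 81.8 and 84.8. PRR9, a morning clock gene, was at 0 in all pol2a libraries and at 0.0666 or less in Col0.

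**Figure D2:**
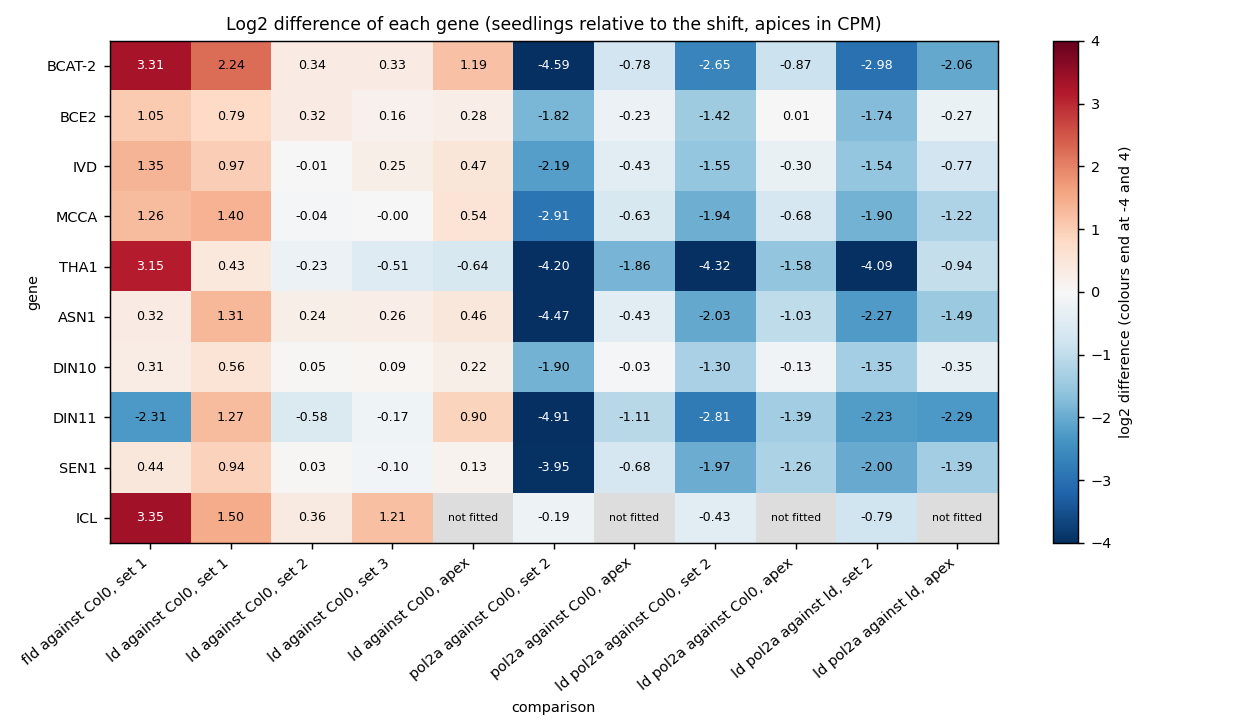
Log2 difference of each gene in 11 comparisons, in seedlings relative to the shift and in apices from TMM-scaled CPM. Red marks a gene higher in the first-named group and blue a lower one; grey cells are ICL in apices, which was too low to be fitted. The first 2 columns are positive for every gene except DIN11 in fld, and the columns comparing ld pol2a with ld are negative throughout.

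In set 3, ld was compared with Col0 in libraries that the choice did not use, although ld of set 1 was part of the choice. By spike-in signal limma called all 10 members higher and 0 lower, also at an unadjusted p under 0.05, against 94.3% and 0.495% of 20998 genes, with a median log2 difference of 0.82 against 0.69 for all genes. Rescaled, limma called 6 higher and 2 lower, against 19.3% and 19.3% of all genes, with a median of 0.13. The calls were the same with Col0 libraries 1 and 2 counted as 1 sample.

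ICL differed most. Its signal was 205, 194 and 188 in Col0 and 729.7, 767 and 704 in ld, 3.75-fold higher (log2 1.9 ± 0.06; limma, adjusted p = 1.44e-13) and 1.21 ± 0.05 above the shift (limma, adjusted p = 4.2e-09). BCAT-2 was 1826, 1763 and 1887 in Col0 and 3501, 3726 and 3873 in ld, 2.03-fold higher and 0.33 ± 0.04 above the shift (limma, adjusted p = 1.56e-05). ASN1 was 9002, 8817 and 8863 in Col0 and 17215, 17262 and 16958 in ld, 1.93-fold higher and 0.26 ± 0.02 above the shift (limma, adjusted p = 4.99e-06). IVD, at 0.25 ± 0.03, and BCE2, at 0.16 ± 0.04, also rose relative to the shift (limma, adjusted p = 2.04e-05 and 0.00525).

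THA1 rose less than most genes did. It was 951, 929.9 and 996 in Col0 and 1042, 1155 and 1068 in ld, a rise of 0.18 ± 0.04 on the spike-in scale that lies 0.51 ± 0.04 under the shift (-0.51; limma, adjusted p = 0.00117 and 1.06e-06). SEN1 was 12330, 12013 and 12882 in Col0 and 18748, 18959 and 18457 in ld, a rise of 0.59 ± 0.03 on the spike-in scale and a fall of 0.10 ± 0.03 relative to the shift (limma, adjusted p = 7.79e-12 and 0.0195). DIN10 rose by 0.78 ± 0.03 on the spike-in scale and lay 0.09 ± 0.03 above the shift (limma, adjusted p = 2.65e-13 and 0.0223). The relative call of SEN1 was lost without Col0 library 3, ld library 2 or ld library 3 (adjusted p = 0.0702, 0.0683 and 0.0654), and that of DIN10 without Col0 library 3 or ld library 2 (adjusted p = 0.0793 and 0.0717). DIN11 (122, 121 and 114 in Col0, 164, 188 and 161 in ld) and MCCA did not pass relative to the shift, with differences of -0.17 ± 0.08 and -0.00 ± 0.03 (limma, adjusted p = 0.121 and 0.968). The sum of 10 seed reserve markers was low, at 3.68 to 4.58 per 1e6 in Col0 and 5.67 to 6.95 in ld. Of these markers, limma called only CRU3 relative to the shift, and their part in the result was not tested.

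**Figure D3:**
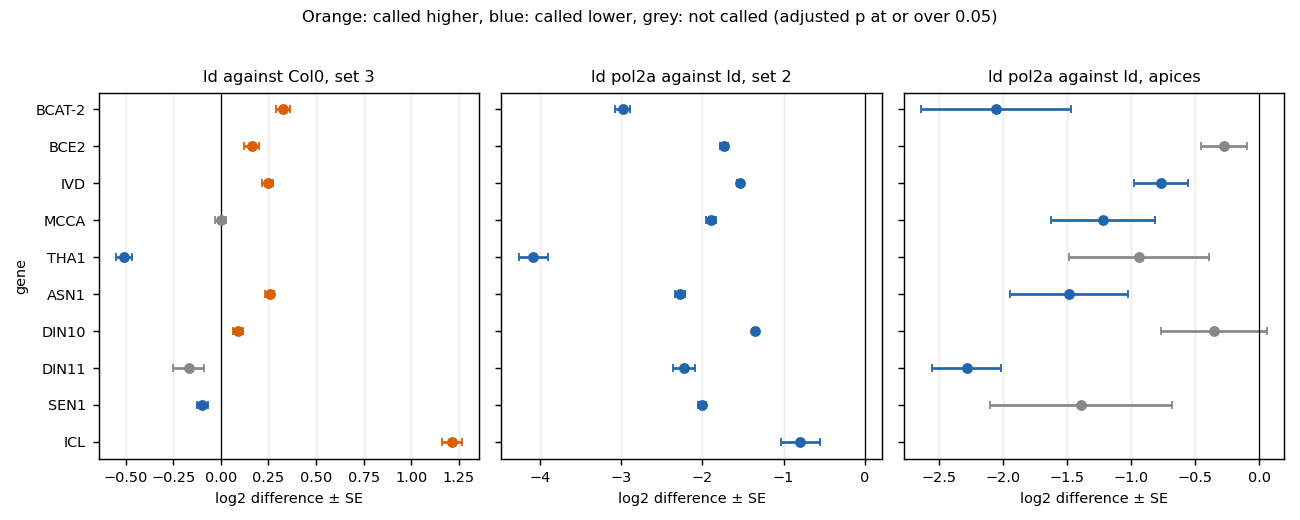
Log2 difference and its standard error for each gene in the 3 comparisons that were tested, with seedlings relative to the shift and apices from edgeR. Points are estimates from 3 libraries per group and the vertical line marks 0. All points in the middle and right panels lie under 0, while the left panel has points on both sides.

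In shoot apices the levels varied widely within groups, mainly through library 3 of Col0 and of pol2a. Of all counts, the members together took 0.0663%, 0.0653% and 0.180% in the Col0 libraries, 0.157%, 0.151% and 0.130% in ld, 0.0442%, 0.0710% and 0.145% in pol2a, and 0.0780%, 0.0732% and 0.0722% in ld pol2a. ASN1 was at 209, 199 and 679.9 CPM (counts per 1e6, TMM-scaled) in Col0, 461, 466 and 569 in ld, 129, 261 and 417 in pol2a, and 192, 160 and 182 in ld pol2a. BCAT-2 was at 6.21, 5.25 and 24.4 CPM in Col0, 30.2, 32.8 and 18.3 in ld, 2.42, 5.45 and 12.7 in pol2a, and 5.24, 6.31 and 8.09 in ld pol2a. For both genes Col0 overlapped with ld and with pol2a, while pol2a and ld pol2a lay under ld in every library.

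Of the 9 members fitted in apices, 1 was lower in all pol2a libraries than in Col0 (13.2% of all genes). This was DIN11, at 1.74, 2.97 and 4.001 CPM in Col0 and 1.29, 1.34 and 1.39 in pol2a, from 16 to 20 reads per pol2a library. The other 8 overlapped, all with a negative log2 difference, from -0.03 for DIN10 to -1.86 for THA1. Deviations of same-numbered Col0 and pol2a libraries correlated at 0.36, 0.47 and 0.26, and overlap ignores such pairing. By number, THA1 was lower in pol2a in each pair: 5.38, 8.08 and 22.3 CPM in Col0 beside 0.887, 3.21 and 5.55. For BCAT-2, ASN1 and DIN10, library 2 was higher in pol2a than in Col0. Same-numbered Col0 and ld libraries also correlated (0.23, 0.56 and 0.58). In ld against Col0, 1 member was higher in all libraries (8.94% of all genes), which was again DIN11, and 8 overlapped. In ld pol2a against Col0, 3 members were lower (22.0% of all genes): ASN1, DIN11 and THA1. Against pol2a, 1 member, DIN11, was lower (16.4% of all genes). These contrasts share Col0 or pol2a libraries with the choice of genes and carry no test.

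Between ld pol2a and ld apices, which the choice did not use, all 9 members were lower in every ld pol2a library than in every ld library, against 20.1% of 18705 genes. The mutation added here is again pol2a, so a fall is not independent of the choice. The edgeR quasi-likelihood test called 5 lower and 0 higher, also at an unadjusted p under 0.05, where 15.8% and 18.3% of all genes were called. DESeq2 also called 5 lower, where 3333 of 18705 genes were called lower and 3352 higher. The median member log2 difference was -1.22, and that of all genes was -0.02.

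DIN11 was at 4.87, 5.88 and 5.57 CPM in ld and 0.977, 1.22 and 1.16 in ld pol2a, and fell by 2.29 ± 0.27 (SE; edgeR, adjusted p = 0.000129), a call kept with each ld or ld pol2a library left out. That call rests on 17 to 22 reads per ld pol2a library and 73 to 79 per ld library. BCAT-2 fell by 2.06 ± 0.58, ASN1 by 1.49 ± 0.46, MCCA by 1.22 ± 0.41 and IVD by 0.77 ± 0.21 (edgeR, adjusted p = 0.0183, 0.0267, 0.0363 and 0.0153). MCCA was at 138, 129 and 98.5 CPM in ld and 50.7, 55.1 and 51.1 in ld pol2a, and IVD at 32.3, 35.2 and 29.4 and at 19.0, 16.8 and 21.0. These 4 calls lie close to the threshold: without 1 library the number of members called ranged from 1 to 4, with 1 left without ld library 2 or ld pol2a library 2, 2 without ld pol2a library 1 and 3 without ld pol2a library 3. Calls over all genes changed too, with 1541 to 4052 of 18705 called lower in these fits.

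THA1, SEN1, DIN10 and BCE2 did not pass, at -0.94 ± 0.55, -1.39 ± 0.71, -0.35 ± 0.42 and -0.27 ± 0.18 (edgeR, adjusted p = 0.201, 0.147, 0.535 and 0.262). SEN1 was at 116, 137 and 251 CPM in ld and 49.8, 62.7 and 79.7 in ld pol2a, so the groups were separate although the spread was wide. Fitted with the ld and ld pol2a libraries alone, 7 members were called, THA1 and SEN1 among them (edgeR, adjusted p = 0.0286 and 0.0153), where 2443 of 18705 genes were called lower and 2572 higher. Sums of marker genes also differed, although edgeR called only STM of 5 shoot meristem genes and none of 5 root genes. The shoot meristem genes summed to 11.2 to 16.7 per 1e6 counts in ld and 21.4 to 23.4 in ld pol2a, and 5 green tissue genes to 39490 to 51680 and 34790 to 35720. The 11 clock genes summed to 338 to 489.5 in ld and 238 to 297 in ld pol2a, and 5 root genes to 0.774 to 2.12 and 2.44 to 3.01, with the root hair genes EXPA7 and RHD6 at 0 in ld. Their part in the result was not tested.

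Other genes of the same pathways, taken from lists of known members, were counted beside the 10. The lists hold none of the 10 and were chosen with earlier results of these data known. Genes are named mainly for a small p in the comparison described. In set 1 and in pol2a against Col0, the same libraries chose the 10. Counts and p-values there describe the lists and are not independent support. Of 33 other amino acid breakdown genes tested in set 2, limma called 25 lower and 7 higher in pol2a against Col0 relative to the shift, with a median log2 difference of -0.91, where 29.9% and 30.1% of all genes were called lower and higher. ERD5, the mitochondrial proline dehydrogenase, fell by 2.32 ± 0.03 and GDH2, glutamate dehydrogenase, by 1.54 ± 0.03 (limma, adjusted p = 8.85e-27 and 3.66e-24). The partners of members followed: DIN4, the E1 beta subunit of the keto acid dehydrogenase, was at -1.91 ± 0.06, ETFQO, which passes electrons from IVD to ubiquinone, at -1.79 ± 0.05, MCCB, the partner subunit of MCCA, at -1.29 ± 0.05, and BCAT-1, the paralogue of BCAT-2, at -1.50 ± 0.12 (limma, adjusted p = 4.73e-20, 3.45e-20, 7.99e-17 and 8.97e-11). Of 15 sugar-repressed and dark-induced genes, 13 fell and 0 rose, among them STP1, a hexose transporter (-3.35 ± 0.03), MIOX2, myo-inositol oxygenase (-2.75 ± 0.04), and BGAL4, a beta-galactosidase (-2.47 ± 0.03; limma, adjusted p = 6.75e-30, 1.22e-26 and 1.98e-26). Sugar-induced genes went the other way: 9 of 10 rose and 0 fell, with a median of 1.77. Counts by spike-in signal were alike, with 25 and 7, 13 and 0, and 0 and 9 called lower and higher in the 3 lists, against 25.3% and 34.1% of all genes.

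In ld pol2a against ld, limma called 22 of the 33 amino acid breakdown genes lower and 8 higher relative to the shift, where 29.6% and 30.7% of all genes were called. All 15 sugar-repressed genes and 15 of 19 genes of the glyoxylate cycle and fatty acid breakdown were lower with 0 higher, and 9 of 10 sugar-induced genes were higher with 0 lower. By spike-in signal the counts of lower and higher were 8 and 20, 7 and 3, 1 and 17, and 0 and 10, against 1.17% and 94.0% of all genes. ERD5 fell on both scales, by 2.07 ± 0.03 relative to the shift, as did MIOX2, by 2.23 ± 0.04, and BGAL4, by 1.92 ± 0.03 (limma, adjusted p = 2.93e-25, 2.21e-24 and 8.06e-24). ASPGB1, an asparaginase, also fell on both scales, by 2.51 ± 0.15 relative to the shift (limma, adjusted p = 1.78e-13). MLS, malate synthase and the partner of ICL in the glyoxylate cycle, fell by 0.35 ± 0.14 (limma, adjusted p = 0.0358), and PCK1, which makes phosphoenolpyruvate from the product of that cycle, by 0.71 ± 0.04 (limma, adjusted p = 9.57e-15), while on the spike-in scale both were called higher (0.56 ± 0.14 and 0.21 ± 0.04; limma, adjusted p = 0.000546 and 6.71e-06). LDOX, an anthocyanin enzyme, rose by 2.10 ± 0.14 and APL3, a starch synthesis subunit, by 1.42 ± 0.11 relative to the shift, and both also rose on the spike-in scale (limma, adjusted p = 4.04e-12 and 2.20e-11 relative to the shift).

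Apices had fewer calls in the same comparison, where 15.8% of all genes were called lower and 18.3% higher. Of 33 amino acid breakdown genes, edgeR called 10 lower and 3 higher in ld pol2a against ld, of 14 sugar-repressed genes 5 and 1, of 19 autophagy and senescence genes 9 and 0, and of 10 sugar-induced genes 0 and 2, the last near the share over all genes. BCAT-1 fell by 1.43 ± 0.16 and D2HGDH, hydroxyglutarate dehydrogenase, by 0.80 ± 0.11 (edgeR, adjusted p = 0.000103 and 0.000401). TPS8 and TPS11, trehalose phosphate synthase-like genes, fell by 1.09 ± 0.17 and by 0.84 ± 0.12 (edgeR, adjusted p = 0.000715 and 0.000317). GLU1, ferredoxin-dependent glutamate synthase, fell by 1.55 ± 0.17, and TT4, chalcone synthase, rose by 1.43 ± 0.41 (edgeR, adjusted p = 6.71e-05 and 0.0198). ERD5 did not follow the members there, with a difference of 1.03 ± 0.46 (edgeR, adjusted p = 0.103).

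In ld of set 3, lists split both ways relative to the shift, where 19.3% of all genes were called higher and 19.3% lower. Of 34 amino acid breakdown genes limma called 14 higher and 6 lower, of 15 sugar-repressed genes 6 and 4, of 13 SnRK1 and bZIP genes 1 and 5, and of 19 autophagy and senescence genes 3 and 10. Of 19 genes of the glyoxylate cycle and fatty acid breakdown 10 were higher and 0 lower. Without rescaling, every tested gene of these lists was called higher, as were 94.3% of all genes. PCK1, at 0.21 ± 0.03, ACO3, aconitase, at 0.19 ± 0.02, and MLS, at 0.20 ± 0.05, rose relative to the shift beside ICL (limma, adjusted p = 4.78e-05, 6.53e-05 and 0.0112). ERD5 rose by 0.46 ± 0.03 and DIN2, a beta-glucosidase, by 0.86 ± 0.07 (limma, adjusted p = 4.78e-08 and 7.96e-07). BCAT-1, at -0.31 ± 0.05, DIN4, at -0.17 ± 0.03, and STP1, at -0.25 ± 0.03, fell relative to the shift and rose on the spike-in scale (limma, adjusted p = 0.000178, 0.000445 and 8.60e-06 relative to the shift).

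In set 1, the amino acid breakdown list had 19 of 33 genes higher and 4 lower in fld and 20 and 6 in ld relative to the shift, by limma, where 29.4% and 29.5% of all genes in fld and 25.5% and 27.7% in ld were called. By spike-in signal 33 and 0 in fld and 32 and 1 in ld were called, against 98.8% and 0.215%, and 97.2% and 0.414%, of all genes. GDH2 (0.96 ± 0.02 in fld, 0.92 ± 0.02 in ld), ERD5 (1.11 ± 0.03 and 1.00 ± 0.03) and DIN4 (0.94 ± 0.04 and 0.99 ± 0.04) rose in both, with the highest adjusted p by limma at 1.12e-14. The sugar-repressed list divided in fld, with 6 higher and 9 lower relative to the shift, while by spike-in signal all 15 were higher in both mutants. STP1 lay under the shift at -1.15 ± 0.02 and MIOX2 above it at 1.77 ± 0.03 (limma, adjusted p = 8.08e-21 and 8.42e-22). In ld, relative to the shift, 9 of the 15 were higher and 2 lower. Of the 8 sugar-induced genes tested, 6 were higher and 1 lower in fld, and 2 and 4 in ld, relative to the shift, while by spike-in signal 8 and 7 were higher by limma.

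**Figure D4:**
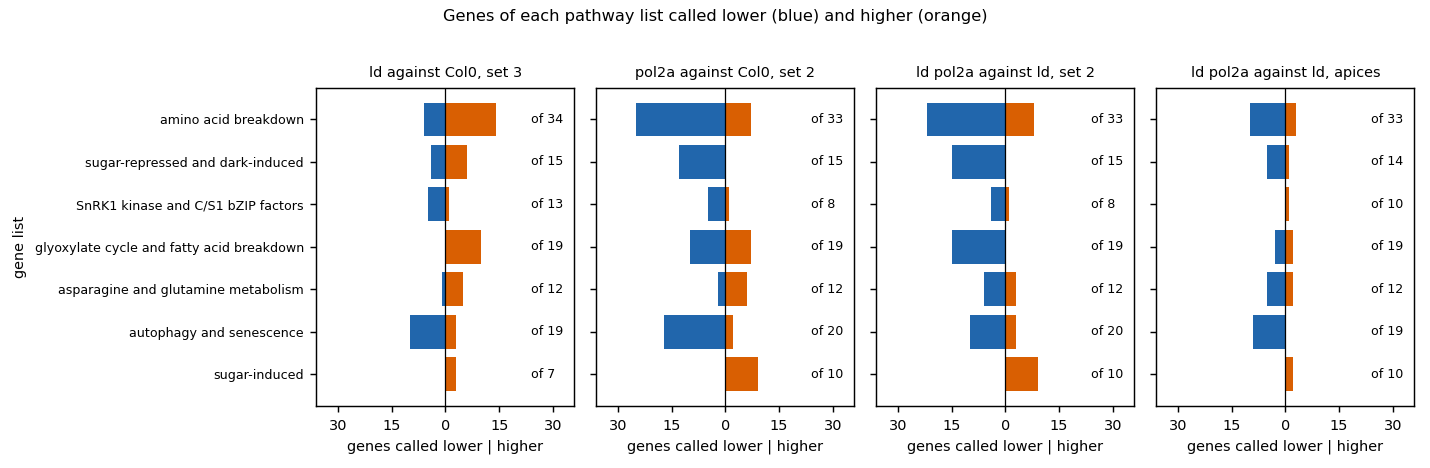
Number of genes of each pathway list called higher (orange, to the right) and lower (blue, to the left) in 4 comparisons, in seedlings relative to the shift by limma and in apices by edgeR. The number of genes tested stands at the right of each bar. In set 2 the sugar-repressed list lies to the left (13 and 15 genes lower) and the sugar-induced list to the right (9 and 9 genes higher).

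Across the 27 seedling libraries, the members varied together to different degrees. Log2 values relative to the shift, minus the Col0 mean of each set, were correlated between each member and the mean of the others, as a description only, since libraries of a group share genotype and set. Set 1 and pol2a libraries also chose the members, so joint variation is partly built in by the choice. Pearson's r was 0.99 for MCCA and 0.99 for IVD and BCE2, 0.97 for BCAT-2 and SEN1, 0.95 for ASN1 and 0.91 for THA1. DIN11 at 0.72 and ICL at 0.61 stood lower, and their pair had the lowest of 45 pairwise values, 0.12. In the 12 apex libraries, r ranged from 0.76 for DIN11 to 0.98 for MCCA.

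Among 18822 other genes tested in all seedling sets, those most like the mean of the 10 members were SAG20 (r = 0.992), PDS1 (0.992), ERD5 (0.991), OXS3 (0.989), MCCB (0.989) and AT1G30820 (0.989), over 27 libraries. PDS1, hydroxyphenylpyruvate dioxygenase of tyrosine breakdown, had mean signals of 170 ± 8.06 in Col0, 913 ± 48.1 in fld and 696 ± 26.6 in ld of set 1, and of 1031 ± 52.4 in Col0, 1543 ± 8.11 in ld, 164 ± 11.3 in pol2a and 794 ± 56.5 in ld pol2a of set 2 (SD, n = 3). In apices the closest of 18696 genes over 12 libraries were EXO70A1 (0.964), ASHH1 (0.961), ETFQO (0.958), AT1G61100 (0.956), AT5G44260 (0.954) and AT2G35050 (0.952). The 2 sets of closest genes had none in common.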

How the data were processed

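RNA-seq of 39 libraries in 13 groups of 3 was used, as 4 tables. Per the submitters' processing notes, tools included Trimmomatic 0.38, HISAT2, SAMtools 1.9, featureCounts and DESeq2, with TAIR10; strand settings were not stated. The seedling tables hold signal that the authors scaled by spike-in, and 100% of values came back as whole reads within 0.1 read. In pol2a library 3 of set 2 a read is worth 1.003, so its reads can hardly be told from its signal. The apex table holds raw counts, as deposited.

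Seedling signal was fitted per set with limma 3.58.1 (trend, robust; R 4.3.3) on log2(signal + 1) for genes whose mean signal reached 10, as deposited and after median-of-ratios rescaling. Log2 values therefore understate changes of low genes. Apex counts were fitted with edgeR 4.0.16 (quasi-likelihood, TMM, filterByExpr); DESeq2 1.42.0 was an alternative. P-values were adjusted by Benjamini-Hochberg over all genes tested, at 0.05. Fits were tested on simulated data. Other alternatives were pseudocounts, filters, group subsets, replicate blocks and leaving out libraries.

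The members and gene lists were chosen with earlier results of these data known. Genes named from the lists were those with the smallest adjusted p per list, plus partners of the members. Replicate numbers were not used as pairs: in no tested comparison did every same-numbered pair correlate over 0.1, although those of Col0 with ld and with pol2a apices did. The promoter window of 1 member is not reported here.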

Additional observations from a re-analysis of the deposited data

Results flagged for a closer look

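Several genes lay on opposite sides of their comparison group in different experiments, with every library of the one on one side and every library of the other on the other side. That group was Col0, except for the last item, where it was pol2a. None of these differences between experiments was tested. Relative to the shift, DIN11 in ld against Col0 had a log2 difference of 1.27 in set 1 and -0.58 in set 2, and 0.90 in apices. THA1 in the same contrast was at 0.43 in set 1, -0.23 in set 2 and -0.51 in set 3. SEN1 was at 0.94 in set 1 and -0.10 in set 3, and MCCA at 1.40 in set 1 and -0.04 in set 2. DIN11 in ld pol2a against pol2a in set 2 was at 3.50 by spike-in signal and 2.10 after rescaling, and at -0.28 in apices. Apices and seedlings also differed in clock genes: CCA1 averaged 24.6 per 1e6 in Col0 apices and 0.482 to 2.1 in Col0 seedlings. The part of such differences was not tested, and DIN11 had only 23 to 53 reads per Col0 apex library.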

How the results depend on the processing

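Of the counts of members called in the tested comparisons, 115 recomputed values stayed within 1.5 times the reported count and 7 moved. The 115 include counts of 0 that stayed at 0. They also include the 10 members higher in set 3 by spike-in signal, where 94.3% of all genes were called higher. The total is therefore a weak measure of stability. Counts of members whose libraries did not overlap were not recomputed. All 7 that moved concern ld pol2a against ld in apices or ld against Col0 of set 3 relative to the shift. In apices the count called lower was 5, and it was 2 with no filter on low counts, 5 with DESeq2, and 1 to 4 with 1 library left out. Over all genes, 2948 of 18705 were called lower, 2657 of 25408 with no filter, 3333 with DESeq2 and 1541 to 4052 with 1 library left out. In set 3 relative to the shift the count called lower was 1 to 2 and the count called higher 5 to 6 with 1 library left out. In set 2 the count called lower was 9 on the spike-in scale and 9 to 10 relative to the shift. With edgeR on the recovered seedling reads, 9 and 10 members were called lower in set 2 (229 and 5932 of all 19444 genes by spike-in signal and after rescaling) and, in set 3 after rescaling, 6 higher and 2 lower (3904 and 3892 of all 20998 genes). Same-numbered libraries were not paired by the labels, and correlations of their deviations exceeded 0.1 in 0 of 18 pairs in set 2, 0 of 3 in set 3, 3 of 9 in set 1 and 12 of 18 in apices. With the replicate block, 9 and 10 members were called lower in set 2 by spike-in signal and after rescaling (215 and 5501 of 19444 genes). In set 3 relative to the shift, 6 were higher and 2 lower (4142 and 4151 of 20998 genes). In apices 6 were lower (3366 of 18705 genes), where SEN1 was added (edgeR, -1.29 ± 0.38, adjusted p = 0.0235). Among single genes, 6 values reversed. Over each apex library left out, THA1 in ld against Col0 ran from -0.98 to 0.18, and in ld pol2a against Col0 BCAT-2 ran from -1.23 to 0.19 and DIN10 from -0.42 to 0.55, positive without Col0 library 3. In ld pol2a against pol2a, BCAT-2 ran from -0.48 to 0.71, DIN10 from -0.36 to 0.51 and SEN1 from -1.03 to 0.59, positive without pol2a library 3. The cause was not tested. Depth limits ICL in apices, DIN11 in fld, and BCAT-2, DIN11 and THA1 in pol2a. It also limits DIN11 in ld pol2a apices (17 to 22 reads) and THA1 in ld pol2a of set 2 (23 to 100 reads).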
